A study of Mus musculus with 12 samples.

Results

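The AMPA and NMDA receptor subunit genes are described here in the mouse cerebellum. The 10 genes were taken by symbol: Gria1, Gria2, Gria3 and Gria4 for AMPA receptors, and Grin1, Grin2a, Grin2b, Grin2c, Grin2d and Grin3a for NMDA receptors. They are 10 of the 55401 genes in the count tables. All 10 passed the filter on low counts and were among the 19378 genes tested. The study sequenced whole cerebellar RNA of 12 mice in 3 groups of 4, with a separate library for each mouse number in the sample titles. WT DMSO mice were wild type and received DMSO, the solvent. Het DMSO mice carried an Atxn1 154Q/2Q knock-in on 1 allele, which models spinocerebellar ataxia type 1 (SCA1), and also received DMSO. Het Hit 2 mice had the same genotype and received Hit 2, a compound known here by its code name, at 25 mg/ml in DMSO. Intraperitoneal injections began at 18 weeks of age, and tissue was taken at 20 weeks after 2 courses of 5 daily injections. DMSO was thus common to all 3 groups, and no wild-type mice received Hit 2. The comparisons asked what the knock-in did under DMSO, what Hit 2 did in knock-in mice, and how treated knock-in mice stood against wild type.

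AMPA and NMDA receptors are glutamate-gated cation channels, each built from 4 subunits, and they carry fast and slower parts of excitatory transmission. AMPA receptors that contain the Gria2 product pass little calcium because its RNA is edited at a codon in the pore loop, while those without it pass calcium. NMDA receptors need the Grin1 product together with Grin2 or Grin3 products. In the cerebellum, mature granule cells are known for Grin2a and Grin2c, Bergmann glia for AMPA receptors of Gria1 and Gria4, Purkinje cells for Gria2 and Gria3, and Grin2b, Grin2d and Grin3a are better known from other brain regions or from development.

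The pore-loop sequences below show the residue that separates the subunit families and sets their calcium permeability. Each is 39 bases of coding sequence from the GENCODE M21 transcripts of the mouse build GRCm38, written 5′ to 3′. Capitals mark the codon of the residue at the site, glutamine in the AMPA subunits and asparagine in the NMDA subunits.
Gria1: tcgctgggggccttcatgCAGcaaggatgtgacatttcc
Gria2: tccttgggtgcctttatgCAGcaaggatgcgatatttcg
Gria3: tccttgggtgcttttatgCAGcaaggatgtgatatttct
Gria4: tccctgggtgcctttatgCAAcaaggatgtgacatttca
Grin1: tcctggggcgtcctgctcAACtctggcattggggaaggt
Grin2a: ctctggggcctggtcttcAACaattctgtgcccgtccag
Grin2c: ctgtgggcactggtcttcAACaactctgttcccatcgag
Grin2d: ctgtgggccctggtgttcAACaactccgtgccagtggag
The capitals in Gria2 are the codon that is changed in RNA by editing, and the sequence shown is the unedited genomic form. Closely related as they are, every pair shown differed, from 3 of the 39 bases between Gria2 and Gria3 to 32 between Gria4 and Grin2d. Among the 3 Grin2 genes shown, the pairs differed at 7 to 8 bases. Gene counts hold no information on editing or on splice forms, so the values that follow describe total RNA of each gene.

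Before the results, 2 Het DMSO libraries stood apart. Library 411, labelled cerebellum, had almost no reads of defining cerebellar genes: its Purkinje cell marker Pcp2 was at 0.555 CPM (a gene's reads scaled to a common library size), against 70.2 to 209 in the other 11 libraries, and its granule cell marker Gabra6 was at 0.606 CPM against 227 to 388. Its summed level over 8 granule cell markers was 176 CPM, against 3535 to 7565 in the other libraries, and over 6 midbrain and hindbrain markers it was 121 CPM against 7.45 to 65.7. Library 409 had 0.0795% of gene reads from the mitochondrial genome, against 1.85% to 2.81% in the other libraries. The comparisons of subunit genes and shares are therefore also given without libraries 409 and 411. Gene reads per library ranged from 15855751 to 45265719, so that the least counted subunit gene, Grin2d, still had 315 to 1903 reads. Atxn1, the gene that carries the knock-in, ranged from 137 to 186 CPM with overlapping groups, and total counts of the gene do not show the repeat. Two-sided tests set the group differences against the spread between these mice. In bulk tissue, fewer cells of a type and less RNA per cell cannot be told apart.

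No subunit gene differed between groups past the threshold, an adjusted p of 0.05 over all genes tested by edgeR's quasi-likelihood test with Benjamini-Hochberg adjustment. The count was 0 of 10 in each of the 3 comparisons, and 0 of 10 also had an unadjusted p under 0.05. The count past the threshold stayed at 0 in each of 22 other fits per comparison, DESeq2 and limma among them. Unadjusted p-values under 0.05 did occur in some of these fits, for at most 2 of 10 members in each, as for Gria2 and Gria3 in Het DMSO against WT DMSO without libraries 409 and 411. Over all genes, 0.00516% were called between Het DMSO and WT DMSO, 0% between the treated and untreated Het groups and 0.00516% between Het Hit 2 and WT DMSO, so the threshold was passed by almost no gene in these data. Unadjusted p-values under 0.05 were found for 1377, 301 and 331 of the 19378 genes in the same order. Adjusted p-values of the subunit genes lay between 0.616 and 0.992 in the first comparison, between 0.898 and 0.979 in the second, and at 1.000 in the third. The median log2 fold change of the 10 genes was -0.03, -0.09 and -0.05 in these comparisons, beside 0.05, -0.04 and 0.02 over all genes tested.

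Within the wild-type cerebellum the subunit genes spanned a wide range of levels. Per kilobase of exon, Grin2c stood highest at 100.5 ± 13.8 CPM (SD, n = 4). Gria1 followed at 77.9 ± 2.48, Grin1 at 65.9 ± 3.55 and Gria4 at 63.2 ± 3.96 CPM per kilobase. The ranges of Grin1 and Gria4 overlapped, whereas each of the other neighbours among these genes was apart. Gria2 came next at 29.8 ± 2.78, then Grin2a at 14.2 ± 0.913 and Gria3 at 11.2 ± 0.645 CPM per kilobase, all with ranges apart from each other. Lowest were Grin3a at 3.04 ± 0.542, Grin2d at 2.94 ± 0.582 and Grin2b at 2.87 ± 0.606 CPM per kilobase, whose ranges overlapped, so these last 3 have no order. This order depends on the length used, because the annotated exons of Gria2 (15548 bases) and Grin2b (24842 bases) are several times longer than their coding sequences (2649 and 4446 bases), while those of Grin2c (5037 bases) are not (3717 bases). Per kilobase of coding sequence, Grin1 was highest at 222 ± 12 CPM, Gria2 (175 ± 16.3) and Gria1 (173 ± 5.51) overlapped, Gria4 (147 ± 9.22) and Grin2c (136 ± 18.7) overlapped, and Grin2d was lowest at 4.92 ± 0.976. Grin2a and Gria3 kept the sixth and seventh places on both scales.

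**Figure D1:**
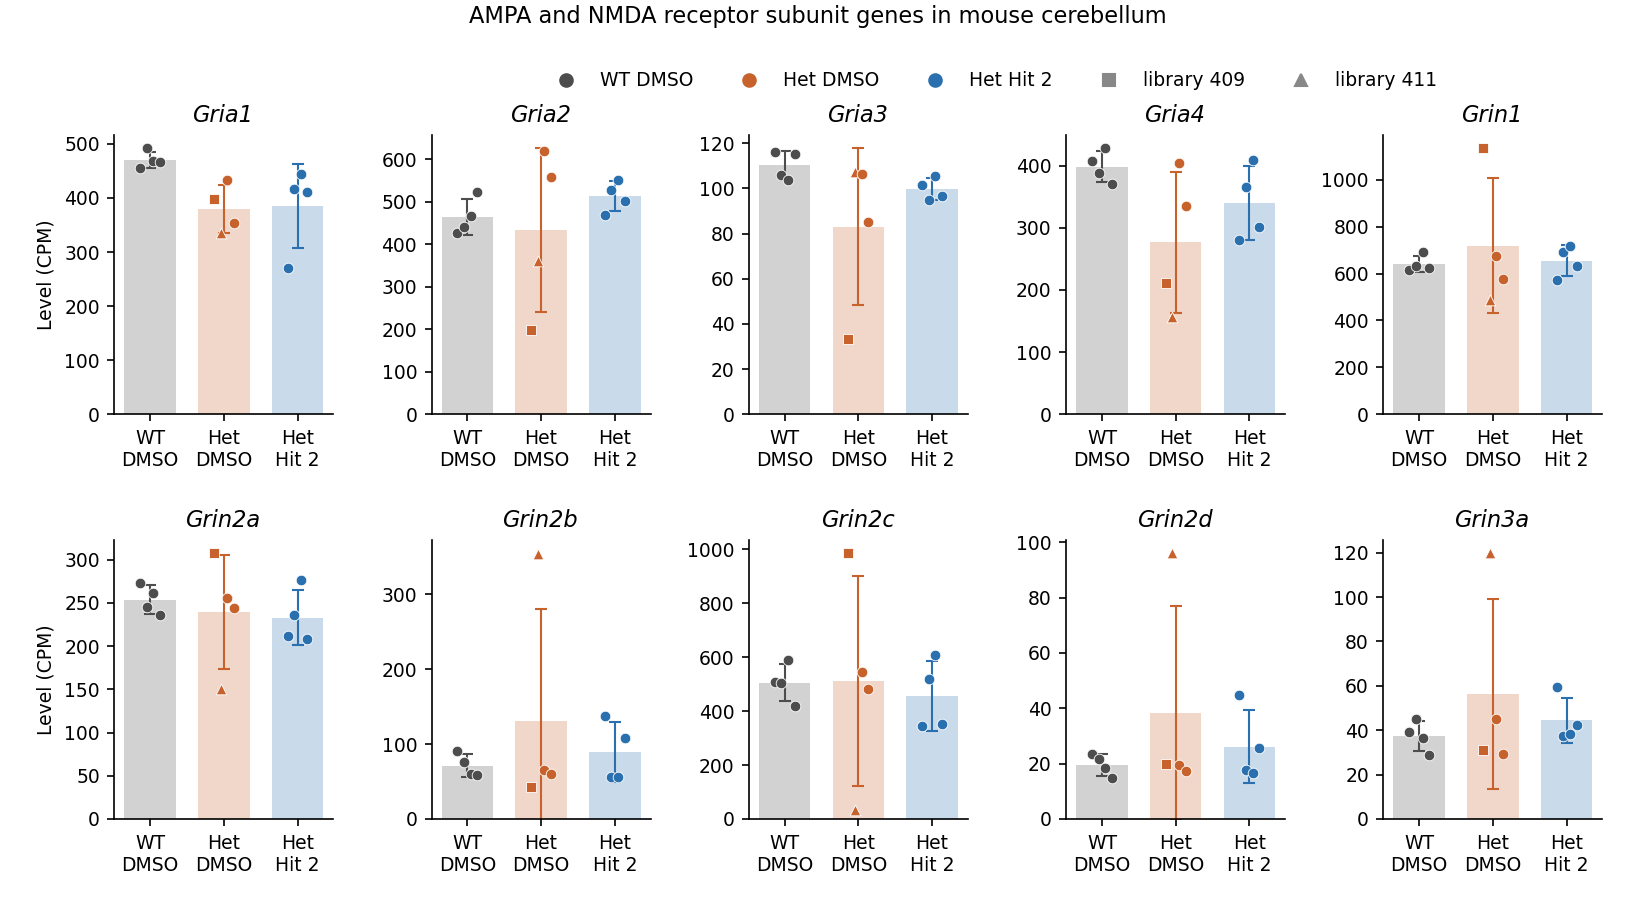
Levels of the 10 subunit genes (vertical axes, CPM, each starting at 0) in the 3 groups of 4 libraries. Bars are means, error bars are 1 SD (cut off at 0 where they reach below it) and points are single libraries, with library 409 drawn as a square and library 411 as a triangle. The Gria1 points of both Het groups lie below all 4 WT DMSO points, and library 411 is far above the rest for Grin2b, Grin2d and Grin3a and far below for Grin2c.

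Gria1, an AMPA subunit, was the single member whose groups did not overlap. WT DMSO libraries were at 456, 492, 468 and 467 CPM (libraries 413, 425, 426 and 431). Het DMSO libraries were at 397, 335, 434 and 354 CPM (409, 411, 420 and 429), and Het Hit 2 libraries at 269.6, 416, 444 and 410.4 CPM (410, 421, 422 and 430). All 8 Het libraries were below all 4 WT DMSO libraries, and library 410 was the lowest. In Het DMSO against WT DMSO the mean was 380.2 ± 44.2 against 471 ± 15.0 CPM (SD, n = 4 each), a log2 fold change of -0.31 (SE 0.16, adjusted p = 0.616). The exact permutation test of log2 CPM gave p = 0.0286, the smallest that 4 against 4 libraries allow. Het Hit 2 against WT DMSO gave 385 ± 78.5 CPM, a log2 fold change of -0.29 (SE 0.16, adjusted p = 1.000) and the same exact permutation p of 0.0286. These 2 comparisons share the WT DMSO libraries. Groups that do not overlap and are lower made up 2.45% of all genes in Het DMSO against WT DMSO and 3.42% in Het Hit 2 against WT DMSO, and 1 of 10 members was in this class in each. No member was in the class of higher groups, which held 1.94% and 2.90% of all genes. Between Het Hit 2 and Het DMSO, where 0.635% of all genes were higher and 0.392% lower without overlap, 0 of 10 members were in either class and Gria1 had a log2 difference of 0.02 (95% interval -0.33 to 0.36).

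Summed levels of Bergmann glia and Purkinje cell markers were also lower in the Het libraries. All 7 Bergmann glia and astrocyte markers were detected in every library, and their sum was 1423 to 1521 CPM in WT DMSO, 827 to 1333 in Het DMSO and 1098 to 1288 in Het Hit 2. The sum of 8 Purkinje cell markers, none of them at 0, was 7039 to 7337 CPM in WT DMSO, 510 to 6492 in Het DMSO and 3012 to 6050 in Het Hit 2. For each sum the Het libraries lay below all WT DMSO libraries, as for Gria1. Of the Bergmann glia and astrocyte list, looked at gene by gene after the values were seen, Slc4a4 (777 to 825 CPM in WT DMSO and 391 to 769 in the Het libraries) and Gdf10 (103.3 to 176 and 1.62 to 103.2) were the 2 genes with this separation. The other 5 genes, Aqp4, Gfap, Aldh1l1, Hopx and Gja1, overlapped, and Aldh1l1 was highest in Het DMSO library 409 at 79.0 CPM, against 55.0 to 70.3 in WT DMSO. Of the 8 Purkinje cell markers, Itpr1, Rgs8 and Skor2 overlapped between the Het and WT DMSO libraries, and Itpr1, which made up most of the sum, was at 4659 CPM in library 409 against 4405 to 4727 in WT DMSO. The other 5 were lower in every Het library than in all WT DMSO libraries. Library 410, the lowest for Gria1, also had the lowest Purkinje marker sum of its group. The part of these markers in the Gria1 values was not tested. Without libraries 409 and 411 the log2 fold change of Gria1 was -0.27 in Het DMSO against WT DMSO (adjusted p = 0.990) and -0.30 in Het Hit 2 against WT DMSO (adjusted p = 0.534). The Gria1 groups did not overlap in these fits, an outcome fixed by the values with all libraries. Leaving out Het DMSO libraries cannot bring about an overlap, and Het Hit 2 against WT DMSO kept all its libraries. Of all genes tested, 9.12% and 3.42% were lower without overlap in these fits. The first share leaves 1 of 10 members near that of all genes. With all other libraries kept, leaving out library 410 alone moved the value of Het Hit 2 against WT DMSO from -0.29 to -0.16.

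Gria2, the subunit that limits calcium entry, was at 425, 439.6, 467 and 523 CPM in the WT DMSO libraries in the order above. Het DMSO libraries were at 198, 359.6, 618 and 558 CPM, and Het Hit 2 libraries at 469.7, 527, 552 and 501 CPM. Libraries 409 and 411 were the lowest of all 12, while 420 and 429 were the highest, so the Het DMSO group enclosed both others. The log2 fold change was -0.10 (SE 0.27, adjusted p = 0.896) in Het DMSO against WT DMSO and 0.14 (SE 0.27, adjusted p = 1.000) in Het Hit 2 against WT DMSO. Without libraries 409 and 411 the first of these turned to 0.33 (95% interval 0.12 to 0.55, adjusted p = 0.442 by edgeR's quasi-likelihood test), with the remaining 2 Het DMSO libraries above all WT DMSO libraries. Het Hit 2 against Het DMSO gave a log2 fold change of 0.24 for Gria2 (SE 0.27, adjusted p = 0.898) with all libraries. This turned to -0.20 without libraries 409 and 411 (95% interval -0.42 to 0.01, adjusted p = 0.983), where Gria2 was the 1 member lower without overlap, beside 5.42% of all genes. In the same fit 0.0895% of the 20105 genes tested were called in Het DMSO against WT DMSO and 8.31% were higher without overlap.

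Gria4, an AMPA subunit of granule cells and Bergmann glia, was at 407, 388, 428 and 369.9 CPM in WT DMSO. Its Het DMSO values were 210.3, 156, 404 and 336 CPM, and those of Het Hit 2 were 279.8, 366, 409 and 302 CPM. Libraries 409 and 411 were the 2 lowest, and 420 lay within the WT DMSO range. Het DMSO against WT DMSO gave the lowest log2 fold change among the members, -0.53 (SE 0.25, adjusted p = 0.616), and the value was -0.12 without libraries 409 and 411. The log2 fold change of Gria4 was 0.30 in Het Hit 2 against Het DMSO and -0.23 in Het Hit 2 against WT DMSO, and the first of these turned to -0.13 without the 2 libraries. Gria3, which lies on the X chromosome, was at 116, 106, 104 and 115 CPM in WT DMSO, 33.2, 107, 106 and 85.2 in Het DMSO, and 102, 94.9, 106 and 96.6 in Het Hit 2. Library 409 was far below the rest and the groups overlapped. Gria3 had log2 fold changes of -0.41, 0.27 and -0.14 in the 3 comparisons (SE 0.27 each), and of -0.21, 0.06 and -0.16 without libraries 409 and 411. Xist marked libraries 425 and 426 as female and the other 10 as male, so both sexes were present in WT DMSO only. The 2 female libraries had the lower Gria3 levels of their group, and with sex as a covariate no subunit gene was called.

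Grin1, the obligatory NMDA subunit, was at 614, 632, 690.1 and 622 CPM in WT DMSO. In Het DMSO it was at 1134, 488, 677 and 579 CPM, and in Het Hit 2 at 573, 693, 719 and 631 CPM. Library 409 was the highest and 411 the lowest, and the other 10 libraries lay between 573 and 719 CPM. The log2 fold changes were 0.17, -0.14 and 0.03 in the order of comparisons above, each with an SE of 0.22. Without libraries 409 and 411 they were -0.04, 0.06 and 0.02. In the last of these fits the 95% interval of Grin1 ran from -0.17 to 0.21 in Het Hit 2 against WT DMSO.

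Grin2c, the NMDA subunit of mature granule cells, varied most, by 29.3 times between its lowest and highest library. WT DMSO libraries were at 507, 506, 591 and 420.1 CPM, Het DMSO libraries at 986, 33.6, 546 and 480.5 CPM, and Het Hit 2 libraries at 345, 521, 609 and 353 CPM. The extremes were again libraries 409 and 411, and libraries 410 and 430 were the next lowest. The log2 fold change was 0.02 with a 95% interval of -1.35 to 1.38 in Het DMSO against WT DMSO, and 0.01 with an interval of -0.49 to 0.51 without those 2 libraries. Grin2a, the other granule cell subunit, was at 273, 246, 261 and 236 CPM in WT DMSO, 308, 151, 256 and 244 in Het DMSO, and 211, 236, 277 and 208 in Het Hit 2. It had the same highest Het DMSO library as Grin2c and the same lowest library, but over a range of 2.04 times only. Against Het DMSO, Het Hit 2 had log2 fold changes of -0.16 for Grin2c (95% interval -1.53 to 1.20) and -0.04 for Grin2a (-0.45 to 0.37), and without the 2 libraries the intervals were -0.66 to 0.32 and -0.35 to 0.14.

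Grin2b, an NMDA subunit known from the forebrain and the immature cerebellum, went the other way in library 411. It was at 90.3, 76.6, 59.8 and 58.8 CPM in WT DMSO, 43.2, 354, 65.7 and 60.3 in Het DMSO, and 137, 56.2, 55.5 and 108 in Het Hit 2. Library 411 was the highest of all, 410 and 430 came next, and 409 was the lowest. Grin2d and Grin3a had the same 2 highest libraries as Grin2b, 411 and then 410. Grin2d ranged from 14.7 to 23.5 CPM in WT DMSO and was at 20.0, 96.1, 19.6 and 17.2 CPM in Het DMSO and 44.8, 17.7, 16.4 and 25.6 CPM in Het Hit 2. Grin3a ranged from 28.9 to 45.0 CPM in WT DMSO and was at 31.1, 119.8, 45.1 and 29.4 CPM in Het DMSO and 59.3, 37.5, 38.5 and 42.5 CPM in Het Hit 2. The log2 fold changes in Het DMSO against WT DMSO, 0.87 for Grin2b, 0.96 for Grin2d and 0.59 for Grin3a, changed sign without libraries 409 and 411 to -0.19, -0.10 and -0.02. In Het Hit 2 against Het DMSO, -0.55 for Grin2b, -0.55 for Grin2d and -0.34 for Grin3a turned to 0.49, 0.50 and 0.25. Het Hit 2 against WT DMSO gave 0.32 for Grin2b, 0.42 for Grin2d and 0.25 for Grin3a, and leaving out library 410 alone took these to 0.03, 0.02 and 0.07.

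**Figure D2:**
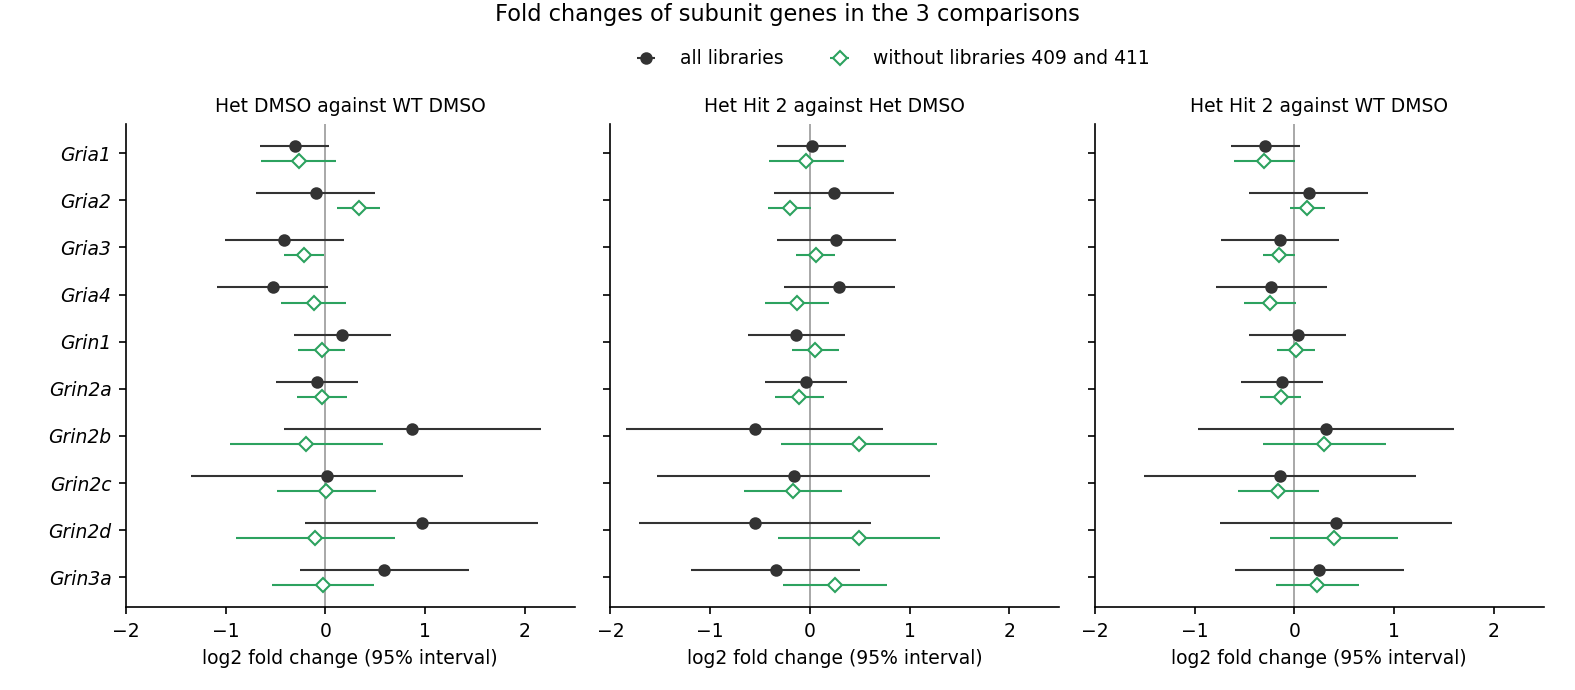
Log2 fold changes of the 10 subunit genes (horizontal axes, with 95% intervals) in the 3 comparisons, from all 12 libraries (filled circles) and without libraries 409 and 411 (open diamonds). Grin2b, Grin2d and Grin3a lie on opposite sides of 0 in the 2 fits for both comparisons that involve Het DMSO, and the intervals are narrower without the 2 libraries for all but Gria1 in those comparisons.

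Libraries that were high or low for these subunits also differed in their marker content. The sum of 8 granule cell markers was 5251 to 5947 CPM in WT DMSO, 3806 CPM in library 430, 3535 in 410, 176 in 411 and 7565 in 409. None of these markers was at 0 in any library. Grin2c was low in the same libraries and high in the same library as this sum. In library 409 the sum was led by Fat2, at 4022 CPM against 2093 to 2494 in WT DMSO. Cbln3, Calb2 and Cbln1 were also above all WT DMSO libraries there, and Zic1 lay within their range. Gabra6, Neurod1 and Etv1, at 230, 135 and 194 CPM in library 409, were below all WT DMSO libraries. The sum of 6 midbrain and hindbrain markers was highest in libraries 411 and 410 (121 and 65.7 CPM). Bcl11b, a transcription factor of forebrain neurons singled out after its values were seen, was at 26.7 CPM in library 411, 7.24 in 410 and 7.41 in 430, against 0.542 to 2.57 in the other 9. The forebrain genes Neurod6, Tbr1 and Emx1 were not highest in library 411, and none exceeded 3.80 CPM in any library. Pax7 and Gata3 of the midbrain and hindbrain list were at 19.5 and 31.1 CPM in library 411, and both were at 0 in libraries 409, 420 and 431. Th was also highest there, at 32.2 CPM, whereas Tph2 and Slc6a4 were highest in library 410 (16.04 and 14.9 CPM, against 10.85 and 9.79 in 411). Otx2 was at 17.4 CPM in library 411, within the 5.82 to 23.5 CPM of the other 11. Summed oligodendrocyte markers (10 of 10 detected) reached 6730 CPM for library 411 and 5616 for 410, where the remaining 10 libraries had 1313 to 3523. The part of these markers in the Grin2b, Grin2c, Grin2d and Grin3a values was not tested.

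**Figure D3:**
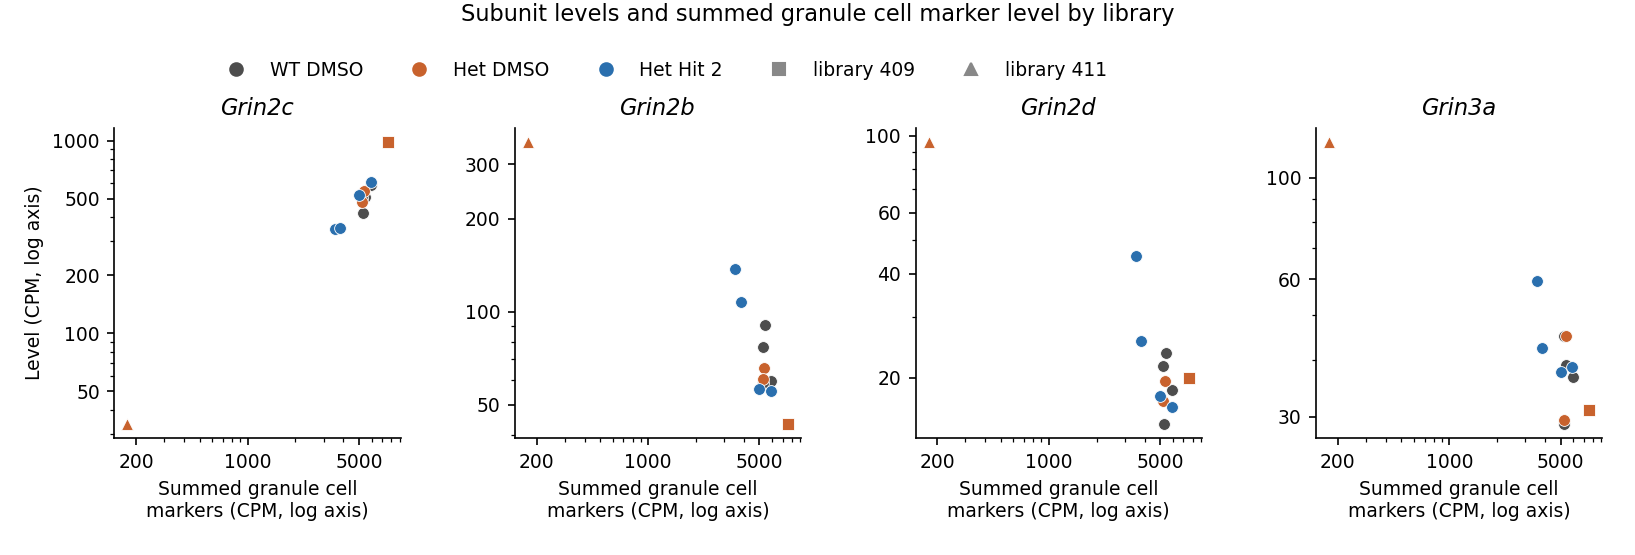
Level of 4 NMDA subunit genes (vertical axes, CPM, log scale) against the summed level of 8 granule cell markers (horizontal axes, CPM, log scale) in the 12 libraries, coloured by group, with library 409 as a square and library 411 as a triangle. Grin2c was lowest in library 411, at 176 CPM of granule markers, where Grin2b, Grin2d and Grin3a were highest; the points share the library sizes used for both axes.

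Composition within each receptor family was then compared as shares of reads per exon length. In WT DMSO, AMPA subunit RNA was 42.8% ± 1.35 Gria1, 34.7% ± 1.95 Gria4, 16.4% ± 1.50 Gria2 and 6.14% ± 0.435 Gria3 (SD, n = 4). On coding length the same libraries gave 32.3% ± 1.28 Gria1, 32.6% ± 2.34 Gria2, 27.4% ± 1.91 Gria4 and 7.71% ± 0.51 Gria3, so the order of the first 3 depends on the length and comparisons are made only between groups. Wilson 95% intervals of unscaled read shares, which cover counting error only, reached at most 0.695 percentage points to either side for AMPA and 0.868 for Grin2 subunits.

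By exon length and with all libraries, the Gria2 share was the single share or ratio of 11 that separated a pair of groups. WT DMSO libraries held 15.3%, 15.5%, 16.1% and 18.5% Gria2, Het Hit 2 libraries 23.3%, 19.9%, 19.2% and 20.4%, and Het DMSO libraries 11.0%, 20.2%, 21.3% and 22.9%. All 4 Het Hit 2 libraries and 3 of 4 Het DMSO libraries were above all WT DMSO libraries, and library 409 was below them. Het Hit 2 exceeded WT DMSO by 4.33 percentage points (20.7% ± 1.81 against 16.4% ± 1.50, exact permutation p = 0.0286), which did not pass after adjustment over the 33 tests of shares and ratios (adjusted p = 0.943). Het DMSO exceeded WT DMSO by 2.52 points (exact permutation p = 0.429, adjusted p = 0.972), and by 5.14 points without library 409 (exact permutation p = 0.0286, adjusted p = 0.471), when the groups no longer overlapped. It was 5.77 points without libraries 409 and 411 (22.1% ± 1.14 in 2 libraries, exact permutation p = 0.0667, the smallest that 2 against 4 allow, adjusted p = 0.733). Het Hit 2 and Het DMSO differed by 1.81 points (exact permutation p = 0.743), by -0.80 points without library 409, and by -1.44 points without both libraries. On coding length the Gria2 difference between Het Hit 2 and WT DMSO was 6.48 points (39.1% ± 2.35 against 32.6% ± 2.34, exact permutation p = 0.0286, adjusted p = 0.471).

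The Gria1 share showed the opposite side of this in part. It was 41.7% to 44.7% in WT DMSO, 34.4% to 43.0% in Het Hit 2, and 57.1%, 48.6%, 38.5% and 37.5% in libraries 409, 411, 420 and 429. The 2 Het DMSO libraries that stood apart were thus above all others and the remaining 2 below all WT DMSO libraries. The Gria1 share of Het DMSO differed from WT DMSO by 2.61 points with all libraries (exact permutation p = 0.657) and by -4.81 points without libraries 409 and 411 (exact permutation p = 0.0667, adjusted p = 0.733). Het Hit 2 was 3.38 points lower than WT DMSO by exon length (exact permutation p = 0.114, adjusted p = 0.972), with overlap through library 430, and lower by coding length (28.2% ± 3.13 against 32.3% ± 1.28), with no overlap (exact permutation p = 0.0286, adjusted p = 0.471). Gria4 held 32.3% to 36.5% in WT DMSO and 30.4% to 35.2% in Het Hit 2, and libraries 409 and 411 were the lowest of all at 29.0% and 21.6%. Gria3 held 5.66% to 6.56% in WT DMSO, 2.92% in library 409, 9.54% in 411 and 7.96% in 410.

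**Figure D4:**
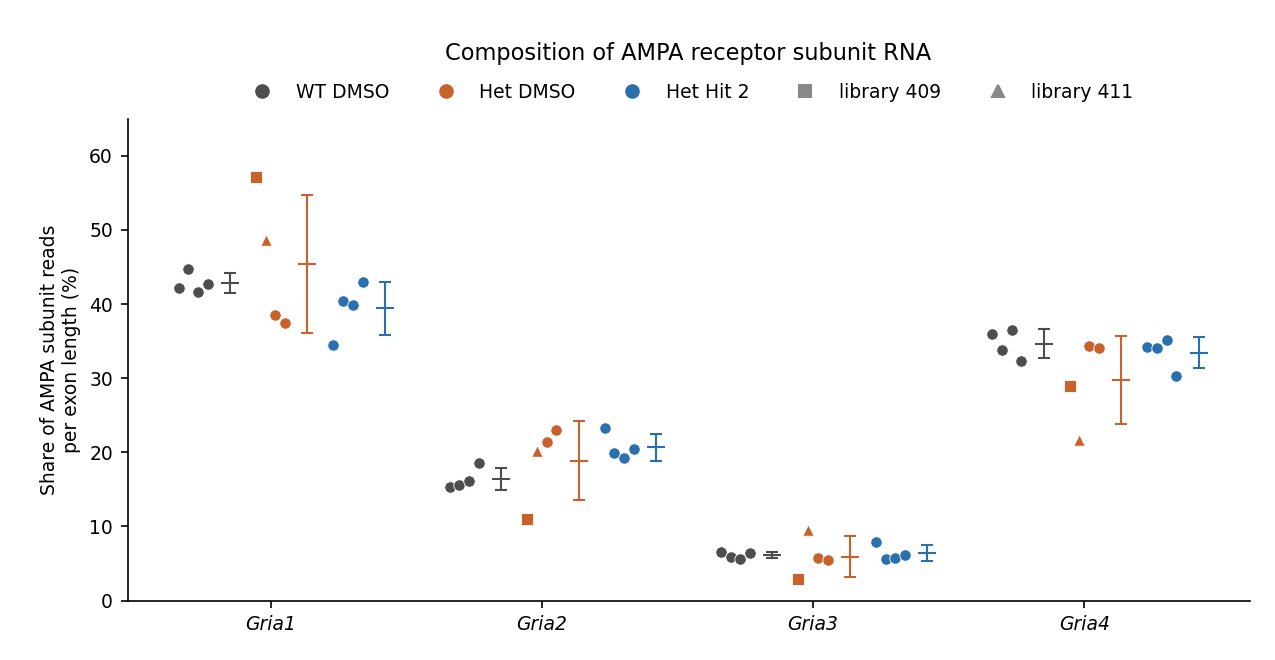
Share of each AMPA subunit in summed AMPA subunit reads per exon length (vertical axis, percent) in the 3 groups; points are libraries, and the line with caps beside them is the mean with 1 SD (n = 4). For Gria2 the 4 Het Hit 2 points, 19.2% to 23.3%, lie above the 4 WT DMSO points, 15.3% to 18.5%, while library 409 (square) lies below and library 411 (triangle) above them.

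Among the Grin2 subunits, Grin2c made up most of the RNA per exon length in 11 of 12 libraries. Its share was 81.8% to 85.6% in WT DMSO, 84.5% and 83.7% in Het DMSO libraries 420 and 429, and 85.1% and 85.7% in Het Hit 2 libraries 421 and 422. It was 89.9% in library 409, 78.0% in 430, 74.1% in 410 and 15.3% in 411. In library 411 the Grin2 RNA was instead 33.0% Grin2d, 32.6% Grin2b and 19.2% Grin2a, against WT DMSO means of 2.44% ± 0.407, 2.40% ± 0.501 and 11.8% ± 1.06. On coding length the order in library 411 was another, with 54.1% Grin2b, 23.3% Grin2a, 16.4% Grin2d and 6.14% Grin2c, against WT DMSO means of 7.49% ± 1.42, 27.0% ± 1.82, 2.29% ± 0.349 and 63.2% ± 2.91. On exon length libraries 410 and 430 lay between, with 7.27% and 4.27% Grin2d and 5.96% and 4.82% Grin2b. On coding length Grin2c held 50.7% in library 410 and 54.9% in 430, and it was 46.8% of the unscaled Grin2 reads in library 410. Group means of Grin2c were 83.3% ± 1.66, 68.3% ± 35.5 and 80.7% ± 5.66 in WT DMSO, Het DMSO and Het Hit 2, and no Grin2 share separated the groups (exact permutation p of 0.371 or more, adjusted p of 0.972 or more). Without libraries 409 and 411 the Het DMSO mean of Grin2c was 84.1% ± 0.588 (n = 2), and its difference from WT DMSO went from -14.97 to 0.78 points (exact permutation p = 0.533, adjusted p = 0.880). Het Hit 2 and WT DMSO had the same mean Grin2a share to 3 digits, 11.8% ± 1.12 and 11.8% ± 1.06, with overlapping ranges.

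**Figure D5:**
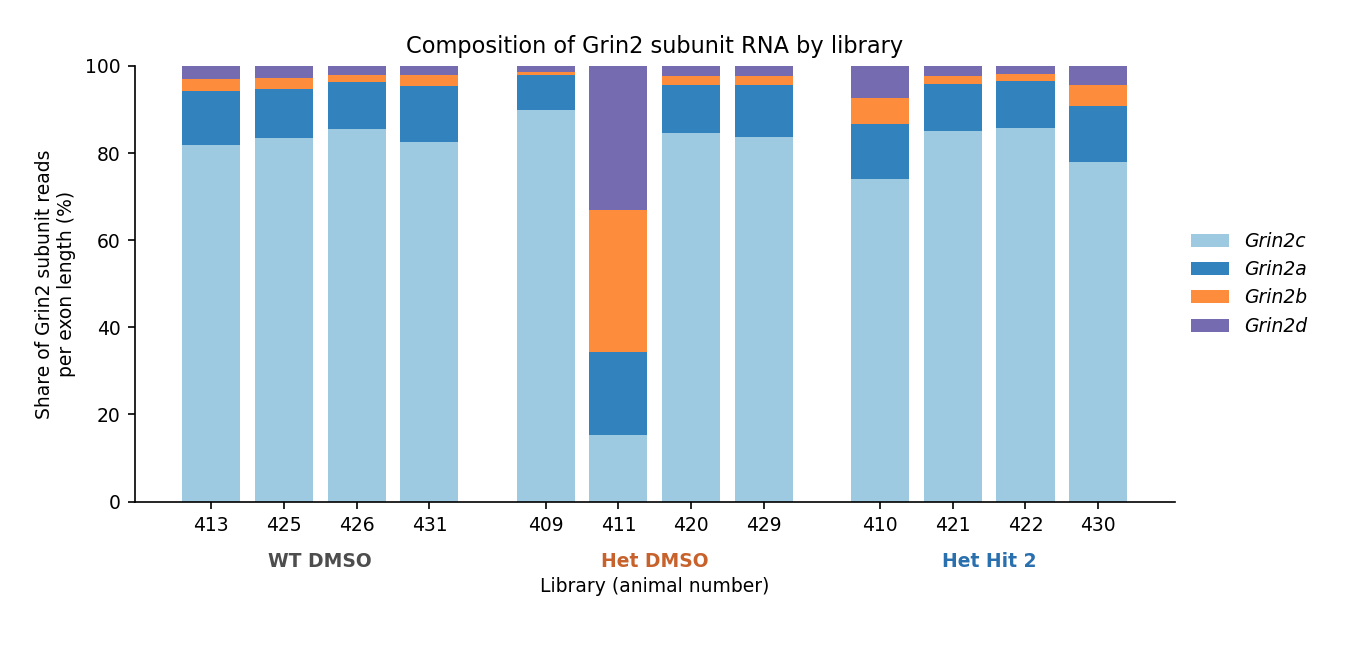
Stacked shares of the 4 Grin2 subunits in summed Grin2 reads per exon length (vertical axis, percent) for each of the 12 libraries, arranged by group. Grin2c fills 74.1% to 89.9% of each bar except that of library 411, where Grin2c fills 15.3%, Grin2b 32.6% and Grin2d 33.0%.

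Ratios between classes were compared in the same way. The log2 ratio of Grin1 to summed Grin2, per exon length, was -0.86 ± 0.14 in WT DMSO, -0.70 ± 0.19 in Het Hit 2, and 0.20 in library 411 against -0.93 to -0.88 in the other Het DMSO libraries. On coding length this ratio was 0.05 ± 0.13 in WT DMSO, and library 411 did not stand apart, at 0.20 beside 0.17 in library 409 and 0.24 in WT DMSO library 431. For Grin3a, whose product lowers calcium entry through NMDA receptors, the log2 ratio to summed Grin2 was -5.32 ± 0.21 in WT DMSO, -2.16 in library 411 and -6.43 in library 409. On coding length it was -4.30 ± 0.20, -2.07 and -5.26 in the same order. Summed AMPA over summed NMDA subunits had a log2 ratio of -0.05 ± 0.12 in WT DMSO and -0.18 ± 0.12 in Het Hit 2 (exact permutation p = 0.2, adjusted p = 0.972), and -1.55 in library 409, where Gria2, Gria3 and Gria4 were low and Grin1 and Grin2c high. On coding length the value of library 409 was -1.28, against 0.26 ± 0.12 in WT DMSO. The 3 log2 ratios of Het DMSO differed from WT DMSO by -0.04, -0.03 and -0.09 without libraries 409 and 411, with overlapping groups. None of the 33 tests of shares and ratios passed the threshold, which a single pair of fully separated groups could not do (adjusted p = 0.943 at the smallest exact permutation p of 0.0286), so this does not show that the shares were alike.

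Among themselves, subunit genes differed in how alike their patterns over the 12 libraries were, measured as the root mean squared difference of log2 CPM after centring each gene. Grin1 and Grin2a were closest at 0.187, then Grin2b and Grin2d at 0.236, Gria1 and Grin2a at 0.241, and Gria2 and Gria3 at 0.278. This difference is small for any pair of genes that vary little. Around its own mean, Gria1 varied by 0.238, Grin2a by 0.252 and Grin1 by 0.278, beside 0.784 for Grin2b and 0.727 for Grin2d. The value for Gria1 and Grin2a was thus no smaller than the spread of Gria1 itself. Grin2b and Grin2c were farthest apart at 1.90. Over all 16623 genes with a mean of at least 1 CPM, the nearest genes to Gria4 were Plcb4, a phospholipase C isoform abundant in the brain (0.0763), and Cacnb4, a calcium channel beta subunit of the cerebellum (0.0854). Grin2a was nearest to Olfm1 (0.0442), a secreted glycoprotein found with AMPA receptors, and Rcor1 (0.0678), a transcriptional corepressor. Grip1, a scaffold protein that binds AMPA receptors, was the nearest gene to Grin2d (0.122), and Klhl13 the nearest to Grin2b (0.104). Grin2c was nearest to Rgl3 (0.118), Gria1 to D530018E20Rik (0.0978), Gria2 to Tial1 (0.0843), Gria3 to Simc1 (0.0895), Grin1 to Zfp574 (0.0457) and Grin3a to Slc30a10 (0.143). These values describe libraries that share their sizes and, for libraries 409 and 411, large departures common to many genes.

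Partner proteins of the receptors were counted from 6 lists with 72 genes, of which 71 were tested. No gene of any list passed the threshold in any of the 3 comparisons (edgeR; smallest adjusted p of 0.616, 0.898 and 1.000), and none did without libraries 409 and 411. Unadjusted p-values under 0.05 were found for 3 of 20 AMPA receptor auxiliary and assembly proteins, 1 of 21 postsynaptic scaffold proteins and 1 of 10 other ionotropic glutamate receptor genes in Het DMSO against WT DMSO, and for 1 of the 20 auxiliary proteins in Het Hit 2 against WT DMSO, and for no other gene of the lists. Over all genes tested the corresponding counts were 1377 and 331 of 19378. Without overlap, 3 of the 20 auxiliary proteins, 1 of 21 scaffold proteins, 1 of 10 other receptor genes and 1 of 7 transporter genes were lower in Het DMSO than in WT DMSO (2.45% of all genes). In Het Hit 2 against WT DMSO 3 auxiliary proteins, 2 scaffold proteins, 2 other receptor genes and 1 transporter gene were lower (3.42%), and 1 auxiliary protein and 1 other receptor gene were higher (2.90%). Median log2 fold changes of the auxiliary list were 0.00, -0.06 and 0.00 in the 3 comparisons, beside 0.05, -0.04 and 0.02 over all genes. Without libraries 409 and 411 the auxiliary medians were -0.19, 0.11 and -0.01, beside -0.01, 0.01 and 0.01 over all genes. The scaffold list had medians of 0.04, -0.09 and -0.03, the 10 other receptor genes -0.10, -0.11 and -0.09, the 10 genes of NMDA co-agonist supply and kinases 0.06, -0.10 and -0.03, the 3 editing enzymes 0.00, -0.07 and -0.07, and the 7 tested glutamate transporters and glutamine synthetase -0.01, -0.15 and -0.12. Without the 2 libraries the first 2 values were -0.05 and 0.02 for scaffolds, -0.16 and 0.14 for the other receptor genes, -0.02 and 0.04 for co-agonist supply and kinases, -0.05 and 0.02 for editing enzymes, and -0.23 and 0.02 for transporters.

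Cacng8, a transmembrane AMPA receptor regulatory protein, was at 11.6 ± 2.33 CPM in WT DMSO, 21.5 ± 9.52 in Het DMSO and 18.7 ± 2.27 in Het Hit 2 (SD, n = 4). Its Het Hit 2 libraries were all above the WT DMSO libraries (log2 fold change 0.69, SE 0.27, adjusted p = 1.000, and 0.0946 without libraries 409 and 411). Shisa6, another AMPA receptor auxiliary subunit, was at 202 ± 10.2 CPM in WT DMSO, 96.4 ± 49.8 in Het DMSO and 139.8 ± 32.1 in Het Hit 2. All 4 Het DMSO libraries were below WT DMSO for Shisa6 (log2 fold change -1.07, SE 0.38, adjusted p = 0.616, and -0.63 with adjusted p = 0.440 without libraries 409 and 411). Shank2, a postsynaptic scaffold protein, was at 398 ± 19.7 CPM in WT DMSO, 251 ± 97.5 in Het DMSO and 285 ± 56.4 in Het Hit 2, with both Het groups below all WT DMSO libraries (adjusted p = 0.616 and 1.000). Its log2 fold changes against WT DMSO were -0.66 and -0.48, and -0.56 and -0.49 without libraries 409 and 411 (adjusted p = 0.448 and 0.188). Grik5, a kainate receptor subunit, was at 109 ± 9.42 CPM in WT DMSO, 151 ± 42.4 in Het DMSO and 132 ± 4.37 in Het Hit 2. Het Hit 2 was again above WT DMSO without overlap (log2 fold change 0.29, adjusted p = 1.000, and 0.27 with adjusted p = 0.161 without libraries 409 and 411). Het DMSO overlapped WT DMSO for Grik5 (log2 fold change 0.47, adjusted p = 0.616 by edgeR, and 0.16 without the 2 libraries). Slc1a3, the glutamate transporter of Bergmann glia, was at 758 ± 57.6 CPM in WT DMSO, 512 ± 228 in Het DMSO and 576 ± 137 in Het Hit 2. Het DMSO was below WT DMSO in all 4 libraries (log2 fold change -0.57, adjusted p = 0.616, and -0.31 with adjusted p = 0.990 without libraries 409 and 411). Among the editing enzymes, Adar was at 235 ± 6.95 CPM in WT DMSO, 294 ± 76.7 in Het DMSO and 248 ± 11.9 in Het Hit 2, with overlapping groups.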

How the data were processed

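Cerebellar RNA depleted of ribosomal RNA was sequenced from 12 mice as directional paired-end libraries, per the labels' protocols. The deposited values are raw read counts per gene in the layout of STAR. STAR 2.7.10a, FastQC 0.11.9 and the builds GRCm39 and mm39 are named in the submitters' processing notes, and the annotation release is not given in the sources used here. Opposite-strand counts were used, since they held most gene reads. Rows that name no gene stayed out of library sizes: 44.7% to 54.6% of a library's reads were unassigned, 4.08% to 7.01% multimapping, 3.70% to 6.53% unmapped and 0.761% to 1.33% ambiguous. Symbols, exon and coding lengths and transcript sequences came from GENCODE M21 (GRCm38), which matched 55141 of the 55401 identifiers, and no coordinates are given because the builds differ. The sequence of 1 subunit gene and the sum of 1 further marker list are not reported here.

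Counts were tested with edgeR 4.0.16 in R 4.3.3 (filterByExpr, TMM factors, 1 quasi-likelihood fit of all 12 libraries with a coefficient per group, and no covariate), with DESeq2 1.42.0 and limma 3.58.1 as alternatives. The standard errors follow from the F statistics. The fit was tested on simulated data. CPM used TMM-scaled library sizes, and log2 CPM a prior count of 2. Shares divide counts by exon length within a library and were compared by exact two-sided permutation tests over libraries, adjusted by Benjamini-Hochberg over 33 tests. Libraries of a group all differed by more than sampling noise, so none was a repeat deposit of another. That each is a separate mouse rests on reading the number in its title as an animal number. Coding length from GENCODE M21 replaced the planned length from RefSeq proteins and was chosen after the data were seen. Named are all 10 subunit genes, the gene with the smallest p in each direction of a list (not all are printed), and the genes nearest to each subunit gene by root mean squared difference. The members, taken by symbol with no cut on measured values, and the lists were chosen with earlier results of these data known.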

Additional observations from a re-analysis of the deposited data

Results flagged for a closer look

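In groups of 4 libraries, the gap between the highest or lowest library and the nearest other was compared with the whole range of the group for each subunit level, share and ratio. This gave 63 checks, of which chance alone would pick out about 1 in 20 (3.15 here), and 6 were picked out, 5 of them in library 411. In Het Hit 2, library 410 had a Gria1 level of 8.08 on the log2 CPM scale, against 8.68 to 8.80 in the other 3 libraries. In Het DMSO, library 411 had a Grin2d level of 6.59 on the log2 CPM scale, against 4.11 to 4.33 in the others. The shares of Grin2 subunits in library 411 were 32.6% for Grin2b (others 0.799% to 2.13%), 15.3% for Grin2c (others 83.7% to 89.9%) and 33.0% for Grin2d (others 1.38% to 2.30%). Its log2 ratio of Grin1 to summed Grin2 was 0.20, against -0.93 to -0.88, by exon length. By coding length this ratio was 0.20 in library 411 and 0.17 in library 409, so that it did not stand apart. The shares are not independent checks, because those of the 4 Grin2 genes add up to the whole in each library.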

How the results depend on the processing

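The count of subunit genes past the threshold was 0 in each comparison in the fit reported and in all 22 alternatives. The count of shares and ratios past it was also 0 in each of 16 alternatives, but exact tests of this size could hardly pass after adjustment, so this count says nothing about stability. No gene was called in Het Hit 2 against Het DMSO under any setting. The count over all genes, 1 in each comparison with WT DMSO, was less stable. In Het DMSO against WT DMSO it was 43 with DESeq2, 98 with limma and library quality weights, 18 without libraries 409 and 411, 0 with only the 2 groups compared, and 0 to 9 when single replicates were left out. In Het Hit 2 against WT DMSO it was 24 with DESeq2, 4 with no filter, 2 with unstranded counts, 221 with limma, 0 with sex as a covariate, 90 without libraries 409 and 411, 54 with only the 2 groups compared, and 0 to 14 when single replicates were left out. The median log2 fold change of the subunit genes in Het Hit 2 against Het DMSO was -0.09, 0.053 with limma, and -0.16 to 0.11 over single replicates left out. The causes were not tested.

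Signs of the members' fold changes in the comparisons with Het DMSO rested on libraries 409 and 411. Without them 5 of 10 changed sign between Het DMSO and WT DMSO, and 7 between the Het groups. The 0 between Het Hit 2 and WT DMSO does not show stability, because that comparison lost no library. No paired analysis was possible because the animal numbers do not recur between groups. With 4 libraries a group, exact permutation tests cannot go below p = 0.0286, and sex differs within WT DMSO only.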
